A study of Homo sapiens with 3 samples.

Results

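When Huh-7 cells carrying a genome-wide sgRNA library were screened, 46 of 18992 gene targets had 2 or more sgRNAs that became abundant in cells surviving the ferroptosis inducer RSL-3, after DHCR7, LPCAT3, LAGE3 and PCBD1 had been set aside. These 46 genes were selected by the survivor counts themselves. An sgRNA was called enriched when it reached 100 counts per 1000000 (CPM) in a survivor library and at least 10 times its untreated CPM, with untreated counts below 3 taken as 3. At least 2 sgRNAs of a gene had to pass in the same survivor library. By this rule 4 genes were chosen in cells that survived RSL-3 alone. Another 42 were chosen in cells that survived RSL-3 with linoleic acid (LA), and none of the 46 was chosen in both. The sequenced survivors are called the RSL-3 library and the RSL-3/LA library. Over all genes, those set aside included, only 0.0316% and 0.237% passed in these libraries, so nothing is read from the lack of overlap. DHCR7, set aside by the rule, passed in both. The enrichment of the 46 genes is the ground on which they were chosen and is given as a description.

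Huh-7 is an established human hepatoma line. The cells were transduced with the GeCKOv2 sgRNA library at a target multiplicity of infection of 0.3 and selected with puromycin. One library came from untreated cells, another from cells treated for 24 h with 0.1 µM RSL-3, and the last from cells treated for 24 h with 0.03 µM RSL-3 and 50 mM LA, and the survivors were regrown and selected again. All 3 groups carried the same sgRNA library, and the number of rounds is given differently in the methods and the legends. Each condition is 1 library of 1 pool, the RSL-3 dose differs between the survivor groups, and both were set against the same untreated library. The readout is genomic DNA, so the identity of the cells could not be checked against expressed markers.

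Ferroptosis is a form of cell death driven by iron-dependent peroxidation of polyunsaturated phospholipids. RSL-3 blocks GPX4, the peroxidase that reduces these lipid peroxides, and LA supplies oxidizable fatty acyl chains. In a pooled knockout screen every sgRNA marks the cells that carry it, and sgRNAs against 1 gene cut it at different sites, which is why several abundant sgRNAs of a gene are commonly asked for before it is followed up.

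The untreated library held 1466896 counts, the RSL-3 library 1467705 and the RSL-3/LA library 1485991. Few of the 119461 sgRNAs were seen at all, 16.0% before selection, 2.46% after RSL-3 and 4.16% after RSL-3/LA. An sgRNA with 0 untreated counts may have held up to 0.000205% of that library, or 2.05 CPM. Folds over 0 untreated counts are given as lower bounds against 3 counts in that library, and ratios with an untreated count carry an exact 95% binomial interval. Bounds and intervals cover counting error only, because PCR reads are not independent molecules, and without replicate libraries no test between conditions was made. Of all enriched gene-targeting sgRNAs, 81.7% in the RSL-3 library and 87.2% in the RSL-3/LA library had 0 untreated counts. The lower bounds therefore refer to the sequenced untreated library and do not limit the share an sgRNA had in the starting cells.

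Of 45 member genes the library held 6 sgRNAs each. The entry CSF2RA_X had 3, with 3 more listed as CSF2RA_Y for the same gene of the pseudoautosomal region. In the RSL-3 library 0.42% of all gene-targeting sgRNAs were enriched, and 0.0316% of genes had 2 or more, a number that includes the genes set aside. In the RSL-3/LA library the background was 1.19% of gene-targeting sgRNAs and 0.237% of genes with 2 or more. The rule used these same contrasts, so nothing is read from these numbers about the members.

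The 42 genes of the RSL-3/LA library together held 55477 counts, or 3.73% of that library (95% interval 3.70 to 3.76), against 1807 counts or 0.123% in untreated cells. The 4 genes of the RSL-3 library held 2659 counts or 0.181% (0.174 to 0.188), against 616 counts or 0.0420%. Single enriched sgRNAs of these genes stood near the middle of the range of all enriched sgRNAs after RSL-3/LA and somewhat lower after RSL-3. The median was 266 CPM for the 85 enriched sgRNAs of the RSL-3/LA genes, with a range from 103 to 2537 CPM, and 258 CPM over all 1324 enriched gene-targeting sgRNAs there. In the RSL-3 library the median was 174 CPM for 8 sgRNAs of member genes and 251 CPM over all 469, whose highest stood at 195473 CPM.

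Membrane proteins included the gene whose second sgRNA was the most abundant of all members. HCRTR2 encodes a G protein-coupled receptor for the neuropeptide orexin. Its sgRNA HGLibA_20991 had 0 counts in untreated cells, 1 in the RSL-3 library and 2537 in the RSL-3/LA library, which is 1707 CPM and at least 835-fold over the untreated limit. Its sgRNA HGLibB_20963 had 0, 1 and 1807 counts, which is 1216 CPM and at least 595-fold. The remaining 4 sgRNAs of HCRTR2 had no count in any library. HCRTR2 was the 1 gene of the 46 whose second sgRNA passed 1000 CPM. The related receptor HCRTR1 had 0 counts in every library, and the ligand gene HCRT had 46 untreated counts and 0 in both survivor libraries.

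GLRA2, a subunit of the inhibitory glycine receptor, had 2 sgRNAs with 264 and 179 counts in the RSL-3 library and 0 in the other 2 libraries. These correspond to 179.9 and 122 CPM, and to at least 88.0-fold and 59.6-fold. GLRA1, GLRA3, GLRA4 and GLRB, which encode the other subunits, had no count in any library. GLRA2 was thus the 1 gene of its family seen here, in the RSL-3 library and through a pair of sgRNAs of like abundance. No sgRNA of the family was seen in untreated cells, so nothing was measured for the other subunits.

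Transporters, channels, receptors and other membrane proteins also supplied 5 further genes of the RSL-3/LA library. PKD2L1, a cation channel of the polycystin family, had sgRNAs of 2354 and 276 counts, and 24 counts for another, while its sgRNA with 52 untreated counts had 0 in both survivor libraries. SLC25A5, the ADP/ATP translocase of the inner mitochondrial membrane, had 580 counts for an sgRNA with 44 untreated counts, a ratio of 13.0 (95% interval 9.57 to 18.1), and 232 counts for an sgRNA with none. TMEM72, a transmembrane protein, had 911 counts against 56 untreated, a ratio of 16.1 (12.3 to 21.4), and 278 against 0. It also had the most abundant sgRNA of these genes that fell short of the rule, at 98 counts or 65.9 CPM. KCNIP2, a calcium-binding partner of Kv4 potassium channels, had 564 and 184 counts, and the second of these sgRNAs also had 19 counts in the RSL-3 library. CSF2RA_X, the alpha chain of the GM-CSF receptor, had 196 and 170 counts, while the CSF2RA_Y entry had 77 untreated counts and 0 in both survivor libraries.

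Among proteins of transcription and the nucleus, KLF16 had 3 enriched sgRNAs over both survivor libraries. It is a Krüppel-like zinc finger factor. In the RSL-3/LA library HGLibA_25061 had 2057 counts and HGLibB_25026 had 852, each against 0 in untreated cells, which is at least 677-fold and 280.4-fold. In the RSL-3 library these had 0 and 1 counts, and another sgRNA, HGLibB_25025, had 390 counts against 0, which is at least 129.9-fold. Yet another, HGLibA_25059, had 81 counts in untreated cells, 630 in the RSL-3 library and 30 in the RSL-3/LA library. Its ratio of 7.77 in the RSL-3 library (95% interval 6.16 to 9.92) missed the 10-fold limit, so KLF16 just failed to be chosen there. No sgRNA of KLF16 was enriched in both survivor libraries.

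Relatives of KLF16 were also seen in the RSL-3 library. Of 17 KLF genes, 4 had an enriched sgRNA there (23.5%), where 2.44% of all genes had 1 or more. These were KLF16 itself, KLF17 with 580 counts, KLF5 with 302 (2 untreated counts) and KLF12 with 197, each through a single sgRNA. In the RSL-3/LA library KLF16 alone did (5.88% of the family, against 6.72% of all genes). KLF was 1 of 34 families formed by shared symbol roots that were looked at, and no test was made.

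ZBTB7C, a BTB zinc finger factor, was likewise carried by different sgRNAs in the survivor libraries. HGLibA_54922 had 248 counts and HGLibB_54856 had 226 in the RSL-3 library, each with 0 in the other libraries, or at least 82.6-fold and 75.3-fold. HGLibA_54921 had 376 counts in the RSL-3/LA library and 0 elsewhere, at least 124-fold. Against these, HGLibA_54923 with 233 untreated counts and HGLibB_54854 with 67 had 0 in both survivor libraries. The summed ratio of ZBTB7C in the RSL-3 library was 1.58 (95% interval 1.36 to 1.83), the lowest of the members. ZBTB7A and ZBTB7B, its closest relatives by name, had 163 and 119 untreated counts and 0 in both survivor libraries.

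TAF1L, a retrocopy of the TFIID subunit TAF1, shared an sgRNA between the survivor libraries. HGLibA_48225 had 0 counts in untreated cells, 1828 in the RSL-3 library and 447 in the RSL-3/LA library, at least 609-fold and 147-fold. HGLibA_48226 had 12, 0 and 241 counts, a ratio of 19.8 in the RSL-3/LA library (95% interval 11.1 to 38.9). Since TAF1L is nearly identical to TAF1 in sequence, which gene these sgRNAs cut is uncertain. The TAF1 entries of the library had 358 untreated counts and 0 in both survivor libraries.

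The remaining nuclear proteins had their pairs in the RSL-3/LA library alone. ZNF219, a zinc finger protein, had 1099 counts against 7 untreated, a ratio of 155 (95% interval 75.0 to 386), and 664 against 0, while an sgRNA with 1 untreated count had 5 in the RSL-3 library and 0 in the RSL-3/LA library. MSX2, a homeobox factor, had 811 counts against 0 and 378 against 21, a ratio of 17.8 (11.5 to 29.0), whereas another sgRNA with 100 untreated counts had 0. RB1, the retinoblastoma tumour suppressor that restrains entry into S phase, had 615 counts against 0 and 318 against 24, a ratio of 13.1 (8.63 to 20.7). PRR14, which tethers heterochromatin to the nuclear lamina, had 648 and 436 counts against 0, with 16 for another, and its sgRNA with 71 untreated counts had 0. SUN3, a nuclear envelope protein of spermatids, had 526 and 236, URI1, a prefoldin-like protein, 338 and 203, and CREB3L4, a membrane-bound bZIP factor, 229 and 173, all against 0. In this group of 10 genes, 6 had at least 1 sgRNA that was counted in untreated cells and had 0 counts in the survivor library that chose the gene. For ZNF219, CREB3L4 and SUN3 this sgRNA had only 1, 1 and 3 untreated counts. Their ratio intervals reached 38.5, 38.5 and 2.39, so a 0 does not show loss there.

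Signalling proteins included the most abundant single sgRNA of the 46 genes. ADAM28, a membrane metalloprotease, had this sgRNA, HGLibA_00763, with 38 counts in untreated cells, 0 in the RSL-3 library and 3770 in the RSL-3/LA library, a ratio of 97.9 (95% interval 71.2 to 139). Its HGLibB_00762 had 0, 0 and 1231 counts, at least 405-fold. The other 4 sgRNAs of ADAM28 had no count anywhere, so each of its sgRNAs that was seen at all was enriched. AREG, the EGF receptor ligand amphiregulin, had 2534 counts against 39, a ratio of 64.1 (46.8 to 90.4), but only 290 for its second sgRNA. DCLK1, a doublecortin-like kinase, was the most uneven gene, with 2803 and 192 counts, a 14.6-fold gap, and its sgRNAs with 90 and 58 untreated counts had 0 in both survivor libraries.

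MIOS, a subunit of the GATOR2 complex that acts upstream of mTORC1, had counts of a shared sgRNA in both survivor libraries. HGLibB_29245 had 0 counts in untreated cells, 129 in the RSL-3 library, which is 87.9 CPM and below the limit, and 975 in the RSL-3/LA library. HGLibA_29286 had 0, 0 and 674 counts. PRKCZ, an atypical protein kinase C, had 782 and 255 counts in the RSL-3/LA library, ITGB1BP2, the muscle protein melusin, 567 and 176, LONRF3, a RING finger protein, 238 and 169, and the chemokine CCL18 212 and 171, all against 0. Of these, ITGB1BP2 and LONRF3 also had sgRNAs with 93 and 76 untreated counts that had 0 after selection.

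Redox proteins and metabolic enzymes numbered 7, all chosen in the RSL-3/LA library, as were 42 of all 46 members. GPX6 is a glutathione peroxidase of the olfactory epithelium and a relative of GPX4, the target of RSL-3. Its sgRNA HGLibB_20157 had 118 counts in untreated cells, the highest untreated count of any enriched sgRNA of the members, 1 in the RSL-3 library and 2702 in the RSL-3/LA library, a ratio of 22.6 (95% interval 18.8 to 27.4). HGLibB_20158 had 0, 0 and 241 counts, at least 79.3-fold. Over all genes, 6.72% had 1 or more enriched sgRNAs in the RSL-3/LA library and 2.44% in the RSL-3 library. Of the 8 GPX genes of the library, GPX1 had 1 enriched sgRNA of 149 counts in the RSL-3/LA library beside the pair of GPX6. At 100.3 CPM it was just over the limit and the lowest of all enriched gene-targeting sgRNAs there. No GPX gene had an enriched sgRNA in the RSL-3 library. GPX2, GPX3 and GPX5 had 143, 77 and 4 untreated counts and 0 in both survivor libraries. GPX4, GPX7 and GPX8 had no count in any library, untreated cells included, so nothing was measured for them. Among 24 selenoprotein genes, a list chosen after the values were seen that holds the members GPX6 and SEPW1, 4 had an enriched sgRNA in the RSL-3/LA library (these, GPX1 and SELT) and SELT alone in the RSL-3 library. SEPW1, now named SELENOW, had 290 and 243 counts, and TXNDC12, a thioredoxin-fold protein of the endoplasmic reticulum, 586 and 184, all against 0 untreated counts.

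MINPP1, which removes phosphates from inositol polyphosphates, shared an sgRNA between the survivor libraries. HGLibB_29241 had 0 counts in untreated cells, 157 in the RSL-3 library (107 CPM) and 388 in the RSL-3/LA library, and HGLibA_29281 had 0, 0 and 873. Its sgRNAs with 77 and 10 untreated counts had 0 in both. MIOX, an iron-dependent oxygenase of myo-inositol, had 363 and 275 counts in the RSL-3/LA library. INMT, a methyltransferase of indoleamines, had 423 and 314, all against 0, and its sgRNA with 67 untreated counts had 0 in both survivor libraries. MBLAC2, a hydrolase of the metallo-beta-lactamase fold, had 647 against 0 and 193 against 13, a ratio of 14.7 (95% interval 8.37 to 28.0), while another sgRNA with 111 untreated counts had 0. The 4 enriched sgRNAs of MINPP1 and MIOX were thus unseen in untreated cells.

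SYN1, which encodes a synapsin of synaptic vesicles, was the 1 member with 3 enriched sgRNAs in the same library, where 0.0105% of all genes had as many. In the RSL-3/LA library they had 396, 240 and 224 counts, each against 0 in untreated cells and no more than 1 in the RSL-3 library, and at least 130.3-fold, 79.0-fold and 73.7-fold. Its most abundant sgRNA held 46.0% of the SYN1 counts, the lowest share of any member. SYN2 had no count, and SYN3 had 175 untreated counts and 550 in the RSL-3/LA library through an sgRNA short of 10-fold.

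SPATA18, a mitochondrial quality control protein also called Mieap, was the 1 member whose enriched sgRNAs were both seen in untreated cells. HGLibA_46438 had 1 count there and 868 in the RSL-3 library, a ratio of 868 (95% interval 155 to 34304), and HGLibA_46439 had 6 and 172, a ratio of 28.7 (12.9 to 79.2). Both had 0 counts in the RSL-3/LA library.

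HSPA12A, a distant HSP70 family member, had 657 counts against 0 and 512 against 20 in the RSL-3/LA library, the latter a ratio of 25.3 (95% interval 16.2 to 41.7), but its sgRNA with 130 untreated counts had 0. ARPC1A, a subunit of the actin-nucleating Arp2/3 complex, had the most even pair, with 446 and 443 counts against 0, but its sgRNA with 12 untreated counts had 0 in both survivor libraries. Ribosome assembly and RNA binding supplied SBDS, which matures the large ribosomal subunit (739 and 168 counts), RRP36, an rRNA processing factor (259 and 153), and DAZAP1, an RNA-binding protein (216 and 176). SBDS also had an sgRNA with 225 untreated counts and RRP36 one with 10, each with 0 in both survivor libraries. For SBDS the summed ratio was 3.98 (3.44 to 4.63).

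The last 6 genes are tissue-restricted or little studied, and their second sgRNAs stood between 134 and 361 CPM. C8orf86, listed in the current gene table as the non-coding RNA gene LINC03042, had HGLibA_06654 at 0 counts in untreated cells, 614 in the RSL-3 library and 399 in the RSL-3/LA library, and HGLibB_06647 at 0, 2 and 1418. Its sgRNA HGLibB_06648 had 1 untreated count and 0 in both survivor libraries. PRM3, protamine 3 by name, had 1514 counts against 0 and 469 against 21, a ratio of 22.0 (95% interval 14.3 to 36.0). POM121L12, a relative of a nuclear pore protein, had 913 against 0 and 536 against 3, a ratio of 176 (60.0 to 858). C8orf74 had 752 and 280 counts, LCE1B, a late cornified envelope protein of the epidermis, 518 and 259, and CCDC7, a coiled-coil protein, 287 and 199, all against 0. CCDC7 also had an sgRNA with 121 untreated counts and 0 in the RSL-3/LA library.

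Agreement between the sgRNAs of a gene was limited to a pair in 45 of the 46 genes. In the RSL-3/LA library the more abundant enriched sgRNA exceeded the next by a median of 1.97-fold, from 1.01 to 14.6, and the gap was under 2-fold in 21 of 42 genes and over 5-fold in 4. In the RSL-3 library the gap was under 2-fold in 3 of 4 genes, among them ZBTB7C and GLRA2, and 5.05-fold for SPATA18. Of the 164 sgRNAs of the RSL-3/LA genes that were not enriched, 138 had 0 counts in untreated cells and in survivors alike, so nothing was measured for them. Another 21 had untreated counts, from 1 to 225 with a median of 67, and 0 after selection. Only 5 had any survivor count, from 15 for CREB3L4 to 98 for TMEM72.

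Loss of the other sgRNAs was the usual outcome, in the members and in the whole library. Of 22 sgRNAs of the RSL-3/LA genes that were counted in untreated cells and not enriched, 95.5% (95% interval 77.2 to 99.9) had 0 in the RSL-3/LA library, against 94.7% of 17615 such sgRNAs over all genes. For the RSL-3 genes it was all 3 of 3, against 96.6% of 17698. At least 1 such sgRNA was found in 20 of the 46 genes, among them ZBTB7C, SBDS, HSPA12A and DCLK1. For C8orf86, CREB3L4, SUN3 and ZNF219 it had 3 untreated counts or fewer, too few for a 0 to show loss. The 31 members with any untreated count had summed ratios upward from 1.58, and 9 of them were under 10.

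Most enriched sgRNAs of the members were not seen before selection. In the RSL-3/LA library 72 of 85 (84.7%) had 0 untreated counts, against 87.2% of all enriched gene-targeting sgRNAs, and in the RSL-3 library 5 of 8 (62.5%), against 81.7%. All sgRNAs of the RSL-3/LA genes were detected in untreated cells at 14.1% (95% interval 9.99 to 19.0), close to the 15.9% of all gene-targeting sgRNAs. In 29 of the 42 genes neither enriched sgRNA had an untreated count, in 13 a single one did, and in none did both. For the 11 with 10 or more untreated counts the ratio was 13.0 to 97.9.

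In the survivor library that had not chosen them, most members were absent or near 0. For genes chosen in the RSL-3/LA library, an sgRNA was enriched in the RSL-3 library in 4 genes (C8orf86, KLF16, MINPP1 and TAF1L), where 2.44% of all genes had 1 or more. Another 15 had between 1 and 129 counts there, with a median of 1, and 23 had none. At the level of sgRNAs, 22 of their 85 enriched sgRNAs were also counted there, 17 of them 1 to 5 counts. Over all sgRNAs, 2.46% had a count in the RSL-3 library. The share among all enriched sgRNAs of the RSL-3/LA library was not computed, so nothing particular to the members is read from this. Of the 4 genes chosen in the RSL-3 library, ZBTB7C had an enriched sgRNA in the RSL-3/LA library, where 6.72% of all genes had 1 or more, and the other 3, among them GLRA2 and SPATA18, had 0 counts. Because both contrasts share the untreated library, the values are given side by side and no overlap is read from them.

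Lists were drawn up for the promotion and suppression of ferroptosis, cholesterol biosynthesis, ubiquinone synthesis and iron handling. These 5 lists hold 91 of the 18992 gene targets, among them DHCR7 and LPCAT3, which the rule set aside. None of the 46 members was listed. With so small a share of all genes on the lists, nothing is read from this. The share of all genes with 1 or more enriched sgRNAs, 2.44% in the RSL-3 library and 6.72% in the RSL-3/LA library, stands as background to the counts that follow, for which no test was made. Of 21 genes known to promote ferroptosis, POR, SAT1 and PGRMC1 had an enriched sgRNA in the RSL-3 library beside LPCAT3, which was also enriched in the RSL-3/LA library. Of 21 that suppress it, none had one in the RSL-3 library and FTL and HSPB1 did in the RSL-3/LA library. COQ6 did in both, of 13 genes of ubiquinone synthesis, with COQ3, COQ7 and ADCK3 in the RSL-3/LA library. Of 19 genes of iron handling SLC11A2 did in the RSL-3 library and FTL in the RSL-3/LA library, while among the 23 that synthesize cholesterol it was DHCR7 alone, in both libraries.

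The library comes as sub-libraries A and B, and the enriched sgRNAs of a gene came from both in 25 of the 42 RSL-3/LA genes, from A alone in 11 and from B alone in 6. In the RSL-3 library they came from A in 3 of 4 genes, with ZBTB7C as the exception. Of all enriched gene-targeting sgRNAs, 52.3% in the RSL-3/LA library and 55.4% in the RSL-3 library belonged to A. Nothing about the members is read from this split. By the gene table of GRCh38.p14, 7 members lie on the X chromosome (15.2%), where 4.24% of the 18817 gene targets placed by this table lie. By library these were 2 of 4 RSL-3 genes (50%) and 5 of 42 RSL-3/LA genes (11.9%). They include CSF2RA_X, GLRA2, ITGB1BP2, LONRF3, SLC25A5 and SYN1. Among genes with exactly 1 enriched sgRNA the X chromosome held 3.97% in the RSL-3 library and 3.76% in the RSL-3/LA library. Single sgRNAs against X-linked genes were enriched in 1.32% of cases in the RSL-3/LA library, against 1.18% on other chromosomes. In the RSL-3 library it was 0.493% against 0.417%. The share of members on the X chromosome was not tested. LONRF3 and SLC25A5 lie 5 protein-coding genes apart, and no other protein-coding members were within 10.

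Several members stood close to the limits of the rule. The second sgRNAs of RRP36, SBDS and LONRF3 had 103, 113 and 114 CPM in the RSL-3/LA library. Just outside stood FADS2, a desaturase of LA, at 96.9 CPM, ZBTB38 at 96.2 and CSRNP1 at 95.6. In the RSL-3 library SPATA18 and GLRA2 were just inside at 117 and 122 CPM and ZNF841 just outside at 96.1. By fold, SLC25A5 at 13.0 and ADCK5 at 9.81 were nearest to the limit from above and below in the RSL-3/LA library, and KLF16 at 7.77 from below in the RSL-3 library. At 200 CPM in place of 100, 16 genes were left, 1 of them of the RSL-3 library, and 20-fold in place of 10-fold left 39.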

How the data were processed

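Integrated sgRNA cassettes were PCR-amplified by the authors from genomic DNA and read on a MiSeq, with MAGeCK for counting, a tool the submitters' processing notes also name. Trimming and matching settings are not given in the sources used here. The deposited values are counts per sgRNA without normalization, in 2 tables whose untreated columns were identical and were used as 1 library. The authors' tables per target hold scores, p-values and ranks of their own comparison and were not used. The sgRNA sequences and positions were not analysed here.

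CPM were computed over column totals. The members and gene lists were chosen with earlier results of these data known, and functional groups, the GPX and selenoprotein lists and TAF1 after the values were seen. Every member but 1 is named, and results that need it or another gene of the lists are not reported here. The sgRNAs counted in untreated cells or in the library that chose the gene are given for the other RSL-3 genes and for RSL-3/LA genes with 3 enriched sgRNAs, an enriched sgRNA in the RSL-3 library, an enriched sgRNA with 10 or more untreated counts, or a place among the 10 highest second sgRNAs. Symbols are those of the library, of which 44 of 46 are current in GRCh38.p14 and 2 match an older name. The code of the rule was run on simulated counts drawn around the untreated counts, with sgRNAs of chosen genes raised. That setting lacked the loss of most sgRNAs seen in the survivors, so it says nothing about false calls here. Each condition has 1 library, so edgeR was not used. Intervals are exact (Clopper-Pearson). Python 3.11.15, numpy 2.4.6, pandas 2.3.3 and scipy 1.17.1 were used.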

Additional observations from a re-analysis of the deposited data

Results flagged for a closer look

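For 4 sgRNAs of member genes, counted in all 3 libraries, the ratios to untreated cells lay on opposite sides of 1 in the survivor libraries, with 95% intervals that did not reach 1. The sgRNA HGLibA_25059 of KLF16 had a ratio of 7.77 in RSL-3 survivors but 0.366 in RSL-3/LA survivors. HGLibB_20157 of GPX6 had a ratio of 0.00847 in the former and 22.6 in the latter. HGLibA_40414 of RB1 had 0.0416 and 13.1, and HGLibA_44762 of SLC25A5 had 0.0227 and 13.0. The last 3 rest on 1 count after RSL-3, and the rule required their RSL-3/LA ratios to be at least 10. Over all genes, 96.6% of sgRNAs counted in untreated cells and not enriched had 0 counts in the RSL-3 library. Other enriched sgRNAs, such as HGLibA_00763 of ADAM28 with 38 untreated counts, had 0 counts after RSL-3 and so fell outside this set. With 1 library per condition the difference between survivor libraries was not tested.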

How the results depend on the processing

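The 4 genes of the RSL-3 library, 42 of the RSL-3/LA library and 46 in all were recounted under 12 other settings. At 50 CPM they were 9, 76 and 85, at 200 CPM 1, 15 and 16, and at 1000 CPM 0, 1 and 1, the 1 being HCRTR2. With sgRNAs limited to those with at least 1 untreated count they were 1, 0 and 1, the 1 being SPATA18. The genes of the RSL-3 library were 8 with totals without DHCR7 sgRNAs and 7 with untreated counts ignored. With median-of-ratios scaling they were 9 in the RSL-3 library and 26 in the RSL-3/LA library. The 93 enriched sgRNAs of the members became 52 at 200 CPM, 9 at 1000 CPM and 16 with the limit on untreated counts. Members with an enriched sgRNA in the survivor library that did not choose them were 5, and 1 at 1000 CPM or 0 with that limit, in a recount added after the data were seen. Under the other settings each of these numbers stayed within 1.5 times. The share of other sgRNAs with untreated counts and 0 after selection was 96% of 25, and 95.2% of the 21 with at least 3 untreated counts. No member passed in all 12 settings. Apart from 1000 CPM and the limit on untreated counts, 13 members passed in all 10 settings: ADAM28, ARPC1A, C8orf86, HCRTR2, HSPA12A, INMT, KLF16, MINPP1, MIOS, POM121L12, PRM3, PRR14 and ZNF219. Of these 10, only 200 CPM, 20-fold and median-of-ratios scaling removed any member. Settings looser than the rule, such as 50 CPM or untreated counts ignored, could not remove one.

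No paired analysis was possible because the groups hold a single library each. Leaving out a library gives no value here.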
